A study of Mus musculus with 8 samples.

Results

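The 10 genes described here encode factors that remodel chromatin while spermatids replace histones with protamines, and they are Brdt, Chd5, Rnf8, Cdyl, Psme4, Kat5, Phf7, Kdm3a, Dot1l and Ubr2. They were taken by symbol from the 19906 genes of the deposited table, and all 10 were found and passed the filter on low counts. Whole testes of 8 mice, 4 Tmem232-/- and 4 Tmem232+/+, were taken at an age of 2 months for 8 RNA libraries, and the comparison asks how loss of TMEM232, a protein required for the sperm flagellum, changes testis transcripts. Tmem232-/- mice carry a CRISPR-Cas9 deletion inside Tmem232 that was made in C57BL/6 oocytes and is not restricted to a cell type, and Tmem232+/+ mice are wild type. The number of founders behind the mutant line and the relation of the wild-type mice to it are not given in the sources used here.

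In round spermatids, the haploid cells that follow meiosis, nucleosomes are loosened by acetylation of histone H4 and by histone ubiquitination. Readers, remodellers and proteasomes then evict the histones, transition proteins take their place, and protamines finally pack the DNA of the elongating spermatid. Transcripts for most of these proteins are made early, in spermatocytes and round spermatids, since transcription stops as the nucleus condenses.

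Total counts lay between 15428421 and 16350871 per library. Tmem232 itself was not lower in the libraries labelled Tmem232-/-, with 122.1 to 147.6 CPM (counts per 1000000 counts, scaled between libraries by the TMM method) against 106.3 to 111.2 (log2 fold change 0.27 ± 0.07 SE, adjusted p = 0.0335, edgeR). The adjusted p was 0.0858, 0.086, 0.0888 and 0.0892 without Tmem232-/- replicate 1, Tmem232-/- replicate 2, Tmem232+/+ replicate 2 and Tmem232+/+ replicate 4. The count covers the whole gene, including exons outside the deletion, so it is no check of the genotype, and directions are given for the libraries as labelled. Per the methods, mice were genotyped by PCR of tail DNA, which was not analysed here. Markers of germ cells, Sertoli cells and Leydig cells were detected in each library, as the label testis requires. The spermatid markers differed between the genotypes. Of 8 round spermatid markers 7 were higher in the libraries labelled Tmem232-/- (summed level 682.3 to 866.1 CPM against 355.8 to 501.4), and so were 8 of 8 elongating spermatid markers (2947 to 3498 CPM against 1804 to 2053). Of 10 spermatocyte markers none was higher and 2 were lower (4 at an unadjusted p under 0.05, 4697 to 5302 CPM against 4858 to 5215). Of 8 spermatogonial markers 3 were lower, and at an unadjusted p under 0.05 there were 5 lower and 1 higher (summed level 193.0 to 210.7 CPM against 233.4 to 261.2). Of 4 peritubular markers 2 were lower, and all 4 at an unadjusted p under 0.05 (188.9 to 227.0 CPM against 238.4 to 282.7). The sums of both lists did not overlap between the genotypes. No Sertoli, Leydig, macrophage or blood and endothelial marker was called by edgeR. Of 6 Leydig markers, however, 5 had a higher mean at an unadjusted p under 0.05, with a median log2 fold change of 0.47 over the list and summed levels of 398.4 to 566.3 CPM against 252.4 to 433.3, and DESeq2 called 2 of them. In the Sertoli, macrophage and blood and endothelial lists 1, 0 and 1 markers had an unadjusted p under 0.05. No marker of these lists was at 0 in all 8 libraries. In whole testis, more cells of a type and more RNA per cell cannot be told apart.

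Chd5 and Cdyl rose in the libraries labelled Tmem232-/-, each to about the same degree, and no other remodelling factor passed the test. At an adjusted p under 0.05, 2 of the 10 factors were higher and 0 were lower, while 3 of 10 had an unadjusted p under 0.05 and DESeq2 also called 0 lower. Over the 15787 genes tested, 11.8% were called, 10.3% as higher and 1.46% as lower, and 25.1% had an unadjusted p under 0.05, a share near that of the factors at this threshold. The log2 fold changes of the 10 factors had a median of 0.11, and those of all tested genes had a median of -0.05. For the 8 factors that were not called the median was 0.02, with a range of -0.23 to 0.33. The CPM of the genotypes did not overlap for 3 of the 10 factors, Chd5, Cdyl and Rnf8, and for 18.7% of all tested genes.

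**Figure D1:**
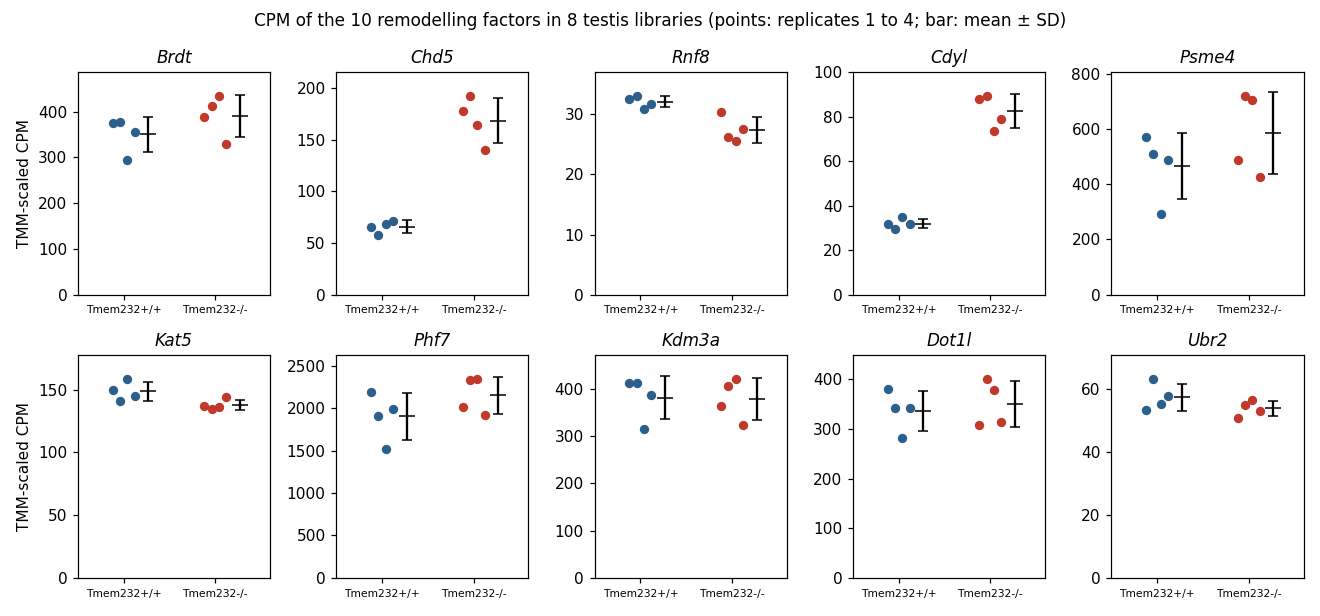
TMM-scaled CPM (vertical axis, from 0) of each of the 10 remodelling factors in the 4 Tmem232+/+ (blue) and 4 Tmem232-/- (red) testis libraries, with replicates 1 to 4 from left to right and the mean ± SD beside them. The red points lie wholly above the blue ones for Chd5 and Cdyl and wholly below them for Rnf8, and the genotypes overlap for the other 7 factors.

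CHD5 is a chromodomain helicase that drives nucleosome eviction in spermatids. Its gene lies at chr4:152338651-152390194 (GRCm38.p6, plus strand), and the level in Tmem232-/- replicates 1 to 4 was 177.6, 192.9, 164.5 and 140.4 CPM, against 65.5, 57.3, 68.8 and 71.8 CPM in Tmem232+/+ replicates 1 to 4. The lowest mutant library was thus above the highest wild-type library, and the ratio of the means was 2.56 (log2 fold change 1.36 ± 0.11 SE, n = 4 per genotype, adjusted p = 2.11e-05, edgeR). An exact two-sided permutation test over the 70 arrangements of the 8 libraries gave p = 0.0286 for Chd5, the smallest value this design allows.

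CDYL is a chromodomain Y-like protein that binds methylated histone H3 and acts as a corepressor, and it has been tied to crotonylation and acetylation of histones in spermatids. Cdyl lies at chr13:35614852-35874064 (plus strand) and was measured at 88.1, 89.5, 73.6 and 79.1 CPM in Tmem232-/- replicates 1 to 4 and at 31.7, 29.6, 34.7 and 31.7 CPM in Tmem232+/+ replicates 1 to 4. Here too each mutant library exceeded each wild-type library, with a ratio of 2.59 (log2 fold change 1.37 ± 0.08 SE, adjusted p = 1.62e-05, edgeR). Both genes were called under each of 17 other settings of the analysis, where the log2 fold change ranged from 1.29 to 1.45 for Chd5 and from 1.26 to 1.45 for Cdyl.

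The change of Chd5 and Cdyl was also taken relative to the other factors, which does not depend on how libraries are scaled. The log2 ratio of Chd5 to the mean of the other 9 factors was -0.37 ± 0.13 (SD, n = 4) for the mutant label and -1.54 ± 0.22 for the wild-type label, a difference of 1.17 (exact permutation p = 0.0286). For Cdyl the ratio was -1.51 ± 0.18 against -2.70 ± 0.21, a difference of 1.19 (exact permutation p = 0.0286). These p-values are unadjusted and are 2 of 10 such comparisons, 1 per factor. The same smallest p was reached in the other direction by Rnf8 (-0.59), Kat5 (-0.45), Ubr2 (-0.44), Kdm3a (-0.34) and Dot1l (-0.27), so that 7 of the 10 factors reached it. The mean that these 5 are set against includes Chd5 and Cdyl, and Brdt (-0.16), Phf7 (-0.13) and Psme4 (0.04) did not reach the smallest p. With FPKM in place of CPM, Brdt reached it as well (-0.10, exact permutation p = 0.0286).

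Set against the summed round spermatid markers of the same library, the difference was 0.54 for Chd5 and 0.56 for Cdyl on the log2 scale, and each mutant library remained above each wild-type library (exact permutation p = 0.0286 for both). Because that sum was itself higher in the libraries labelled Tmem232-/-, the other 8 factors had negative differences on this scale, from -0.48 for Psme4 to -1.04 for Rnf8. The genotypes then did not overlap for Rnf8, Kat5, Kdm3a, Dot1l and Ubr2, and overlapped for Brdt, Phf7 and Psme4. Against the spermatocyte markers, whose sums overlapped between genotypes, the differences were 1.39 for Chd5 and 1.41 for Cdyl. This scaling was added after the data were seen, and none was made by the elongating spermatid markers. In such a sum the abundant markers weigh most, so it need not move as the median marker does. No scaling by the median marker was made. Taken singly, the round spermatid markers had a median log2 fold change of 1.124 (range 0.1963 to 1.342). For the elongating spermatid markers the median was 1.432 (range 0.311 to 2.902). Chd5 (1.358) and Cdyl (1.372) lay just above the range of the round spermatid markers and below the median of the elongating ones. The part of the spermatid markers in the change of Chd5 and Cdyl was not tested further.

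Among 14875 other genes, those whose pattern over the 8 libraries was most like that of Chd5 were Akap3, a scaffold protein of the sperm fibrous sheath, and Catsper1, a subunit of the sperm calcium channel. Their log2 CPM, centred on the mean of the 8 libraries, differed from that of Chd5 by a mean of 0.036 and 0.042. Akap3 had 407 ± 43.7 CPM (SD) in mutant libraries and 160 ± 17.1 in wild-type ones. Most like Cdyl was Rab3il1, an exchange factor for Rab GTPases, with a mean difference of 0.042. This likeness is a description and has no test.

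The windows around the annotated starts of these 2 genes are shown because both rose together. RefSeq (GRCm38.p6) gives 16 windows for the 10 factors, each with 250 bases before and 50 bases after a start. Both strands were searched for TGACG, the short core of the cAMP response element that CREM binds in spermatids, for the full element TGACGTCA, which contains the core, and for TATAAA, the TATA box. The core is in 20.8% of all 32851 windows, the full element in 1.79% and TATAAA in 13.6%. The Chd5 window lies at chr4:152338401-152338700 (plus strand), and a second Chd5 window is shifted by only 3 bases. The capitals mark CGTCA, the core on the minus strand, 32 bases before the start. Windows of Cdyl at 2 starts are shown, the upstream one at chr13:35659612-35659911 and the downstream one at chr13:35741152-35741451 (both plus strand), which belong to different starts, and the remaining Cdyl window overlaps the downstream one. Neither has any of the 3 motifs, so they carry no capitals.
Chd5: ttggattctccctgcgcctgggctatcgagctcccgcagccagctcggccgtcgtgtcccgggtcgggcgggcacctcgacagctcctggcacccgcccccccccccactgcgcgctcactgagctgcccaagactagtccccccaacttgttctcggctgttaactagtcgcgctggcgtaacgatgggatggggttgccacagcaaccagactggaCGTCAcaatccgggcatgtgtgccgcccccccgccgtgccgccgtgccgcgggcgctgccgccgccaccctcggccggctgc
Cdyl upstream start: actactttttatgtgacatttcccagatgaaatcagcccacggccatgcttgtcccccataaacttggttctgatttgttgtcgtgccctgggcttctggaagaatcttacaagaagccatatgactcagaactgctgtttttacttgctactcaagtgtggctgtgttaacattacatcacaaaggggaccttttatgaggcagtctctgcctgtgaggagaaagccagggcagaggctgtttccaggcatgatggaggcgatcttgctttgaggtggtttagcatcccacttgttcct
Cdyl downstream start: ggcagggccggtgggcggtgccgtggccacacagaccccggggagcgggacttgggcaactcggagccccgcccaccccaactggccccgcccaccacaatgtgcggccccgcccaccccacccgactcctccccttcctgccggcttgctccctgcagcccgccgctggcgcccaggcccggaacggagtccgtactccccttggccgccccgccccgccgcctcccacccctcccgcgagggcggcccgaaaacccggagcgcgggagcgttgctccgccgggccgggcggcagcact
Of the 16 windows 6 held the core, and these belonged to 4 factors, Chd5, Psme4, Phf7 and Kat5. No window of a factor held the full element or TATAAA. The core was thus present in windows of factors that were called and of factors that were not, and absent from the Cdyl windows. The annotated genes of Cdyl, Brdt, Kat5 and Kdm3a begin upstream of all their windows, and those starts were not searched.

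BRDT is the testis member of the BET family, and its bromodomains bind acetylated H4 and start the compaction of spermatid chromatin. Brdt (chr5:107317978-107387061) had 388.2, 411.9, 435.1 and 329.1 CPM in Tmem232-/- replicates 1 to 4 and 375.9, 376.7, 295.3 and 355.8 CPM in Tmem232+/+ replicates 1 to 4. The genotypes overlapped, and the difference did not pass the test (log2 fold change 0.16 ± 0.10 SE, adjusted p = 0.378, edgeR).

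KAT5, or TIP60, is the acetyltransferase of the NuA4 complex and acetylates H4 and H2A. Kat5 (chr19:5603014-5611584) was among the steadiest factors, with 134.6 to 143.9 CPM in the mutant libraries and 141.2 to 158.4 CPM in the wild-type libraries. The log2 fold change was -0.11 ± 0.06 SE (adjusted p = 0.316, edgeR), and only Tmem232-/- replicate 4 reached into the wild-type range.

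RNF8, UBR2 and PHF7 are ubiquitin ligases. RNF8 ubiquitinates H2A and H2B on the sex chromosomes and in spermatids, UBR2 is the N-end rule ligase that acts on H2A in meiosis, and PHF7 reads methylated H3 and ubiquitinates histones in early spermatids. Rnf8 (chr17:29614789-29641664) had 30.4, 26.2, 25.6 and 27.5 CPM in Tmem232-/- replicates 1 to 4 and 32.6, 33.1, 31.0 and 31.8 CPM in Tmem232+/+ replicates 1 to 4. The highest mutant library was just under the lowest wild-type library, and the log2 fold change of -0.23 ± 0.08 SE did not pass the test (unadjusted p = 0.0121, adjusted p = 0.0831, edgeR). It passed under 3 of 17 other settings, with adjusted p = 0.0486 when libraries were scaled by size alone, 0.0382 for FPKM with limma and 0.0444 without Tmem232-/- replicate 1.

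Phf7 (chr14:31237690-31251368) had the highest level of all 10 factors, with 2013, 2332, 2347 and 1921 CPM in Tmem232-/- replicates 1 to 4 and 2190, 1908, 1525 and 1997 CPM in Tmem232+/+ replicates 1 to 4. The ranges overlapped widely (log2 fold change 0.18 ± 0.11 SE, adjusted p = 0.358, edgeR). Ubr2 (chr17:46928291-47010775) lay at 50.8 to 56.5 CPM against 53.3 to 63.2 CPM (log2 fold change -0.09 ± 0.07 SE, adjusted p = 0.453, edgeR), again with overlap.

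PSME4, or PA200, is the activator that directs proteasomes to acetylated histones. Psme4 (chr11:30771728-30880361) varied most between mice of 1 genotype, with 487.8, 720.9, 704.3 and 427.5 CPM in Tmem232-/- replicates 1 to 4 and 572.1, 510.8, 293.8 and 486.9 CPM in Tmem232+/+ replicates 1 to 4. The coefficient of variation of its FPKM was 24.8% and 24.7% in the 2 genotypes, against 3.39% to 13.3% for the other 9 factors. Its log2 fold change of 0.33 ± 0.21 SE was the highest among the factors that were not called (adjusted p = 0.366, edgeR).

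KDM3A demethylates lysine 9 of H3 and is needed for transcription of Tnp1 and Prm1, and DOT1L methylates lysine 79 of H3. Kdm3a (chr6:71584075-71633388) had 323.8 to 421.6 CPM in the mutant libraries and 315.7 to 413.1 CPM in the wild-type libraries, almost the same range (log2 fold change -0.01 ± 0.11 SE, adjusted p = 0.966, edgeR). Dot1l (chr10:80755130-80795990) had 307.5 to 400.7 CPM against 281.3 to 380.3 CPM (log2 fold change 0.06 ± 0.11 SE, adjusted p = 0.782, edgeR). For both the sign of the difference changed with the library left out, so neither has a direction in these data.

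**Figure D2:**
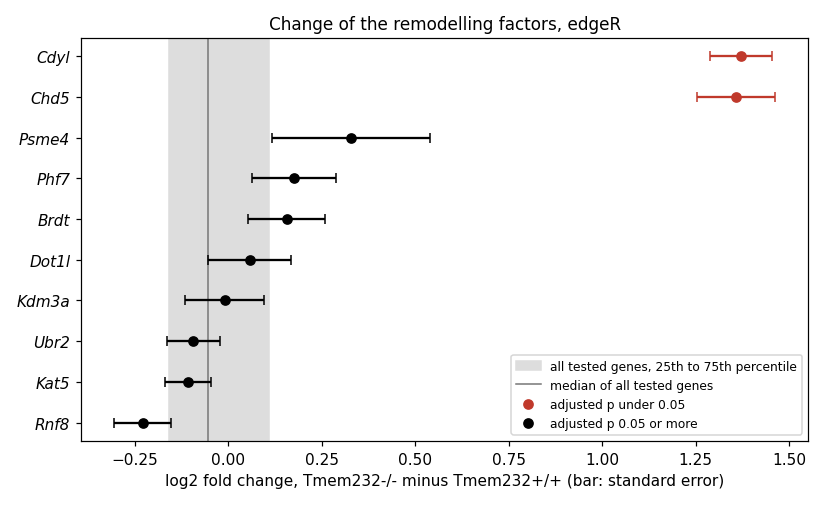
Log2 fold change (libraries labelled Tmem232-/- minus Tmem232+/+, horizontal axis) of each remodelling factor with its standard error, from edgeR, with the 25th to 75th percentile (-0.16 to 0.11) and the median (-0.05) of all 15787 tested genes in grey. Cdyl at 1.37 and Chd5 at 1.36 stand far to the right of the other 8 factors, which lie between -0.23 and 0.33.

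Per length of transcript, the levels of the factors spanned about 2 orders of magnitude, and the change of Chd5 and Cdyl moved them up the order. By the FPKM of the authors, Phf7 was highest in both genotypes at 1177 ± 113.8 (SD) in mutant libraries and 1065 ± 141.2 in wild-type libraries. Brdt followed at 157 ± 11.4 and 137 ± 10.9. Kdm3a, Kat5 and Psme4 formed a middle group at 75.1 to 92.2 FPKM whose ranges overlapped from each to the next in both genotypes, and Dot1l followed at 47.6 and 46.8, where its range overlapped that of Psme4 in the wild-type libraries only. In wild-type testes Rnf8 came next at 17.1 FPKM, above Cdyl (9.87), Ubr2 (9.72) and Chd5 (7.85), of which neighbours in this order did not differ beyond their spread. In the libraries labelled Tmem232-/- Cdyl (24.95) and Chd5 (21.0) stood above Rnf8 (14.2), with no overlap between Chd5 and Rnf8, and Ubr2 was lowest at 8.89.

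**Figure D3:**
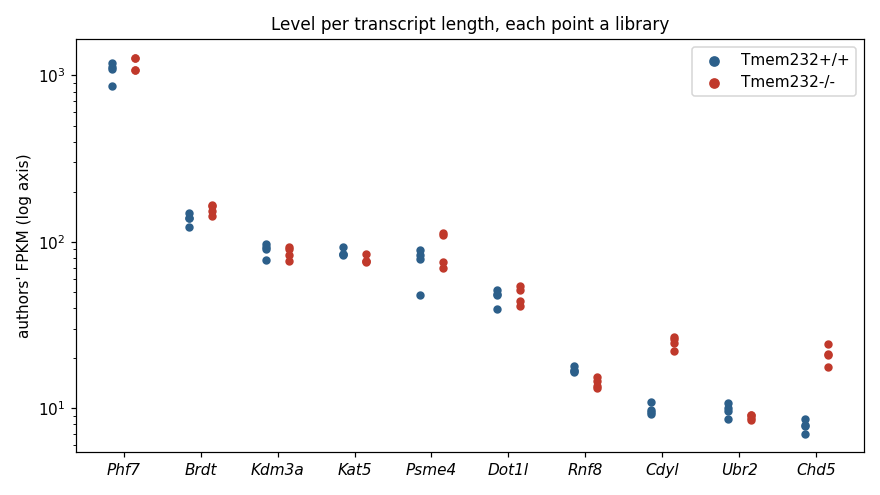
FPKM of the authors (vertical log axis) of each remodelling factor, ordered by the wild-type mean, with 1 point per library in blue for Tmem232+/+ and red for Tmem232-/-. Phf7 is highest in all 8 libraries, and Cdyl and Chd5 lie below Rnf8 in the blue points and above it in the red points.

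Some annotated genes overlap the factors, and whether counting used the strand is not given in the sources used here. Psme4 overlaps Erlec1, the start of Phf7 overlaps that of Bap1, Rnf8 overlaps the noncoding gene Gm28043, and Brdt overlaps the noncoding gene Gm17202. Brdt, Cdyl and Psme4 also each hold a short pseudogene. Reads shared with these neighbours cannot be told apart in the counts.

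Within a genotype, 5 factors moved together from mouse to mouse. Psme4, Phf7, Brdt, Dot1l and Kdm3a were each lowest in replicate 3 among the wild-type libraries, at -0.62, -0.31, -0.24, -0.25 and -0.27 from the log2 mean of the genotype. In the libraries labelled Tmem232-/- the same 5 were above the mean in replicates 2 and 3 and below it in replicate 4. These 5 were singled out after their values were seen. Chd5 and Cdyl were above the mean in Tmem232+/+ replicate 3, by 0.07 and 0.12, but Chd5 was also lowest in Tmem232-/- replicate 4, at -0.26. Transcript length moved with this pattern in some of the libraries. In Tmem232+/+ replicate 3 the median deviation was -0.12 for 2276 genes with transcripts over 5000 bases and 0.21 for 1762 genes with transcripts under 1000 bases, and in Tmem232-/- replicate 4 it was -0.08 and 0.13. In Tmem232-/- replicates 2 and 3 it was 0.06 and -0.08, and 0.07 and -0.13. In Tmem232+/+ replicate 1, however, it was 0.017 and 0.006, although Psme4 was at 0.34 there. In Tmem232+/+ replicate 2 it was 0.09 and -0.16, and the 5 factors were above the mean, from 0.015 for Phf7 to 0.18 for Psme4. In Tmem232-/- replicate 1 it was -0.04 and 0.11, and the 5 were below the mean, from -0.003 for Brdt to -0.23 for Psme4. By the length implied by counts and FPKM, Psme4 (6261 bases) and Dot1l (7262) have long transcripts, Kdm3a (4354), Brdt (2515) and Phf7 (1806) have shorter ones, and Chd5 has the longest of all 10 (8127). Ubr2 (6067) is long too, but was at only -0.05 in Tmem232+/+ replicate 3 and -0.02 in Tmem232-/- replicate 4. The part of length was not tested.

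**Figure D4:**
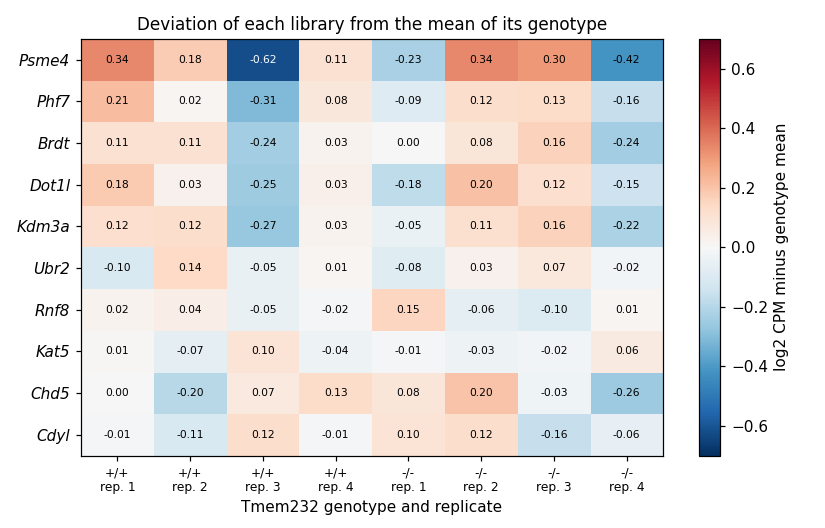
Deviation of the log2 CPM of each factor (rows) from the mean of its own genotype, in each of the 8 libraries (columns), with red above and blue below the mean. Psme4, Phf7, Brdt, Dot1l and Kdm3a are below the mean in Tmem232+/+ replicate 3 and Tmem232-/- replicate 4, at -0.62 and -0.42 for Psme4.

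The proteins that replace histones are made from the genes Tnp1 and Tnp2 for the transition proteins and Prm1, Prm2 and Prm3 for the protamines and a protamine-like protein. All 5 rose in the libraries labelled Tmem232-/-. The change was larger than that of Chd5 and Cdyl for 4 of them, while Prm3 (log2 fold change 1.28 ± 0.31 SE) was close to these 2 factors; the differences between the genes were not tested. Prm1 had 122.1, 85.4, 44.3 and 131.8 CPM in Tmem232-/- replicates 1 to 4 and 4.86, 1.64, 7.54 and 4.18 CPM in Tmem232+/+ replicates 1 to 4 (log2 fold change 4.40 ± 0.41 SE, adjusted p = 4.23e-05, edgeR). Prm2, which lies beside Prm1, rose by 4.44 ± 0.43, Tnp1 by 3.54 ± 0.36 and Tnp2 by 3.86 ± 0.43 on the log2 scale. The wild-type levels of these 4 genes were low, at 27 to 494 counts per library, and lowest in replicate 2. The call of Prm3 (adjusted p = 0.0172, edgeR) was lost without Tmem232-/- replicate 1 (adjusted p = 0.0586). Tmem232-/- replicate 3 was lowest for Prm1, Prm2, Tnp1 and Tnp2 within its genotype, and it was also lowest for Cdyl. Within each genotype Prm1 ordered the libraries as the median deviation of genes with transcripts under 1000 bases did. That deviation ran from 0.13 in Tmem232-/- replicate 4 to -0.13 in replicate 3, and from 0.21 in Tmem232+/+ replicate 3 to -0.16 in replicate 2. The implied lengths of Prm1, Tnp1, Tnp2 and Prm2 are 228 to 450 bases, and the part of length was not tested.

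The wider group around the factors was described through 13 lists that hold 119 genes, of which 116 were tested. Of these 16 were higher, 3 were lower and 97 were not called, and the median log2 fold change was -0.04, close to that of all tested genes. These shares are near the 10.3% higher and 1.46% lower of all tested genes, against which the counts of each list below are also to be read. The genes that rose include all 5 transition protein and protamine genes, 3 testis histones and 5 other exchange factors. Of 6 testis histones tested 3 rose, namely the linker histones Hils1 (log2 fold change 1.49 ± 0.14 SE, adjusted p = 4.75e-05, edgeR) and H1fnt (2.05 ± 0.28) and 1700024P04Rik (1.93). The replacement histones H3f3a and H3f3b, which are used in many tissues, had -0.003 and -0.042. Hist1h2ba, Hist1h2aa and H2afb1 were not tested, with at most 0.87 CPM in any library.

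Of 17 other exchange factors 5 rose. They were Tssk6, a kinase of elongating spermatids (2.69 ± 0.30), Hmgb4, a spermatid HMG-box protein (2.00 ± 0.26), Camk4, a kinase that phosphorylates PRM2 (1.53), Ccer1 (1.11) and Nutm1, the partner of p300 in H4 acetylation (0.59). Those not called include Ep300 itself (0.06), Hspa2, the chaperone of transition proteins (-0.04), Parp1 (-0.11) and Top2b (-0.19). Crem, the activator of spermatid genes, had 0.28 (adjusted p = 0.0716, edgeR).

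Among paralogs and partners of the factors, several lists held no call, where 11.8% of all tested genes were called. None of the 19 genes of the CHD family and the NuRD complex passed, where Rbbp4, the most abundant, had -0.09, and none did so among 16 genes of the TIP60 complex (Morf4l1, 0.07), 6 partners of DOT1L (Mllt10, -0.04), the other KDM3 demethylases (Jmjd1c, 0.02) and the PHF7-related genes G2e3 and Brwd1 (0.17 and 0.02). At an unadjusted p under 0.05, which 25.1% of all tested genes reached, there were 6 genes of the CHD and NuRD list (5 of them lower), 1 of the TIP60 list, 2 of the DOT1L list and 0 of the KDM3 and PHF7 lists, and DESeq2 called 1 gene in each of the first pair of lists and 0 in the other 3. Among the other 8 CHD genes, none of which edgeR called, the genotypes did not overlap for 3, against 18.7% of all tested genes. The mutant libraries were lower for Chd6 (log2 fold change -0.24 ± 0.07 SE, unadjusted p = 0.00768, adjusted p = 0.0603, called in 2 of 17 other settings) and Chd8 (-0.14 ± 0.06, unadjusted p = 0.0472, adjusted p = 0.194, called in 0 of 17), and higher for Chd7 (0.32 ± 0.12, unadjusted p = 0.0219, adjusted p = 0.123, called in 0 of 17). The closest paralogs of Chd5 had -0.03 (Chd4) and -0.13 (Chd3), and the differences between these genes and Chd5 were not tested. Of the 7 partners and paralogs of CDYL 1 fell, the H3 lysine 9 methyltransferase Ehmt1 (-0.37 ± 0.10, adjusted p = 0.0296, edgeR), and Cdyl2 had 0.11.

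In the pathway of RNF8, H2afx, the histone variant that marks DNA breaks and the sex body, fell by 0.35 ± 0.08 on the log2 scale (adjusted p = 0.0148, edgeR), and Rnf168, the ligase that acts after RNF8, rose by 0.38 ± 0.10 (adjusted p = 0.0279, edgeR). Among 18 proteasome genes 1 rose, Psma6 of the core particle (0.40 ± 0.08, adjusted p = 0.00479, edgeR), and among 8 genes of the UBR pathway 1 rose, Ubr7 (0.21 ± 0.06, adjusted p = 0.045, edgeR). The calls of Ehmt1, H2afx, Rnf168 and Ubr7 were lost in 3 to 8 of 17 other settings, with adjusted p up to 0.183, and those of Psma6, Hils1, H1fnt, Tssk6 and Hmgb4 held in all 17. Leaving out any single library except Tmem232-/- replicate 4 or Tmem232+/+ replicate 3 ended the call of Ehmt1 (adjusted p 0.0608 to 0.0898). The call of Rnf168 ended without Tmem232-/- replicate 1 or 2 or Tmem232+/+ replicate 1, 2 or 4 (0.0539 to 0.0802), and that of Ubr7 without Tmem232-/- replicate 1 or 2 or Tmem232+/+ replicate 2 or 4 (0.0856 to 0.128). That of H2afx ended without Tmem232-/- replicate 2 or Tmem232+/+ replicate 1 (0.0558 and 0.05). These adjusted p-values are from edgeR.

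**Figure D5:**
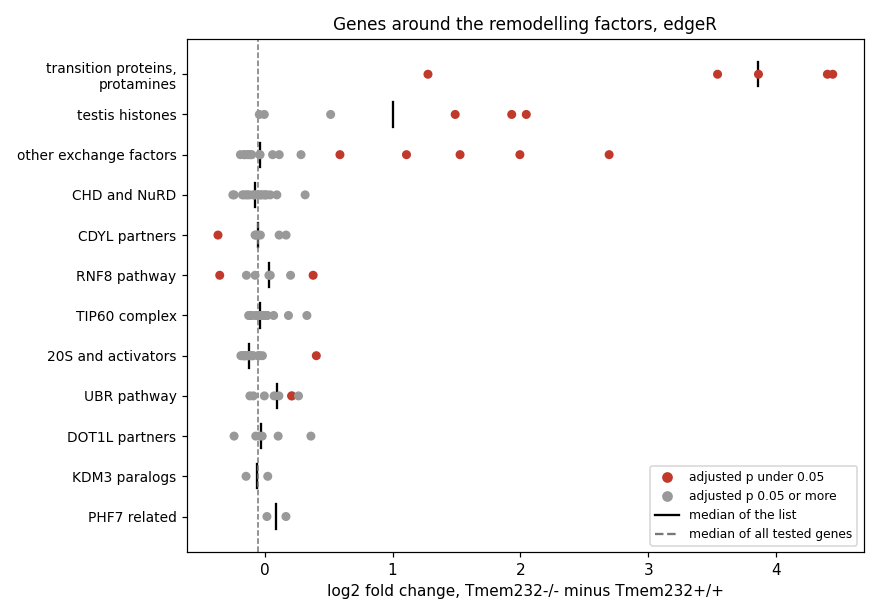
Log2 fold change (libraries labelled Tmem232-/- minus Tmem232+/+, horizontal axis) of each tested gene in 12 of the lists around the remodelling factors (rows), with red for an adjusted p under 0.05, a bar for the median of the list and a dashed line for the median of all tested genes (-0.05). Transition proteins and protamines lie between 1.28 and 4.44, and the genes of the CHD and NuRD, TIP60 and DOT1L lists scatter around 0.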

How the data were processed

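Testis RNA of 8 mice was sequenced in pairs of reads (TruSeq RNA kit), with 1 library per mouse. Per the labels and methods, the authors mapped reads to GRCm38.p6 with HISAT and Bowtie2, used StringTie and featureCounts to obtain counts and FPKM, and compared the genotypes with DESeq2. Versions are not given in the sources used here. The deposited estimated counts are not normalized, and 10.7% to 11.2% of the values per library are fractional. Per-library FPKM, also deposited by the authors, is scaled to transcript length and library total (checked on 8750 genes). Deposited log2 fold changes, p-values and q-values of the authors were not used.

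Counts were rounded and tested in R 4.3.3 with edgeR 4.0.16 (quasi-likelihood test, default filter, TMM, no covariates), with Benjamini-Hochberg adjustment over 15787 genes. Single values were compared by exact permutation of the 8 libraries. Alternatives were DESeq2 1.42.0, its size factors, library size alone, omission of the 10 most abundant genes, no filter, at least 10 counts in every library, limma-voom (limma 3.58.1), log2(FPKM + 1) with limma, a block for replicate number, and omission of each library in turn. Tables and figures were made in Python 3.11.15. On simulated data with 15654 tested genes, edgeR recovered 58.2% of 1.5-fold, 83.6% of 2-fold and 97.0% of 3-fold changes, with 5.92% false calls. There 200 genes were changed and genes were drawn independently, so these shares need not hold for the data. Total counts per library were 15428421 to 16350871.

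The factors and the gene lists were chosen with earlier results of these data known. Named genes were the factors, Tmem232, the transition proteins and protamines, per list the 2 genes with the smallest adjusted p under 0.05 or else the most abundant gene, and the 2 genes most like each called factor. Other genes, such as Camk4, Nutm1, Crem, Chd4, Chd6, Chd7 and Chd8, were named after their values were seen. Some genes that this rule names are not reported here.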

Additional observations from a re-analysis of the deposited data

How the results depend on the processing

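The calls of Chd5 and Cdyl as higher were unchanged in all 17 alternatives, with adjusted p of at most 0.000667. The number of factors called lower was 0, and 1 (Rnf8) with library size alone, 1 for FPKM with limma and 0 to 1 when a library was left out (1 without Tmem232-/- replicate 1). The number of genes in the 13 lists called lower was 3 and became 6 with library size alone, 6 for FPKM with limma and 1 without the filter, and ranged from 0 (without Tmem232+/+ replicate 1) to 6 (without Tmem232-/- replicate 4) when a library was left out, with 1 without Tmem232-/- replicate 2 and 1 without Tmem232+/+ replicate 4. Over all tested genes 230 were lower, against 28 to 466 in the alternatives. The cause was not tested.

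After the mean of each genotype was subtracted from the log2 CPM of each gene, same-numbered libraries had correlations of -0.177, 0.217, -0.53 and -0.221. These values gave no sign of a pairing by replicate number, but so few of them cannot exclude it. With the replicate block 0 genes of the lists were lower, the log2 fold change of Tmem232 was 0.26 (adjusted p = 0.114, edgeR), and 1317 genes in all were higher and 28 lower, while Chd5 and Cdyl kept adjusted p = 0.000667 and 0.000553. When a library was left out, Tmem232 ranged from 0.21 to 0.32.

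Several values below their threshold changed sign. Kdm3a was 0.01475 with DESeq2 and 0.01474 with its size factors, 0.036 without the filter, 0.031 when divided by the spermatocyte markers, and -0.064 to 0.074 when a library was left out. Dot1l was -0.014 to 0.163 when a library was left out. Brwd1 was -0.018 with library size alone, -0.074 for FPKM with limma and -0.011 to 0.077 with libraries left out. Jmjd1c was -0.011 with library size alone, -0.016 for FPKM with limma and -0.064 to 0.132 with libraries left out. Mllt10 was 0.00185 without the filter and -0.097 to 0.032 with libraries left out. Divided by the round spermatid markers, whose sum was itself higher in the libraries labelled Tmem232-/-, factors with positive values turned negative: Brdt was -0.66, Psme4 -0.48, Phf7 -0.63 and Dot1l -0.76. Phf7 has no value when the 10 most abundant genes are left out, since it is 1 of them.

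With 4 mice per genotype, 58.2% of 1.5-fold changes were recovered in simulated data. There 200 genes were changed, while 1863 were called in the data, so this share need not hold for the data. Smaller changes such as that of Rnf8 were not simulated.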
